A study of Mus musculus with 32 samples.

Results

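The genes described here encode enzymes of cholesterol and fatty acid synthesis and proteins of the SREBP system that controls them. They were picked by symbol from a list of 30 genes, in 3 groups: enzymes of sterol synthesis, SREBP regulators, and enzymes of fatty acid synthesis. Of the 30, 29 had a row of their own among the 20234 genes of the count table, which gave 16 sterol enzymes, 6 regulators and 7 fatty acid enzymes. Tm7sf2, a sterol reductase gene, was counted there only in a joint row with Vps51, its neighbour, and is left out of the counts of levels and changes below. In that joint row the log2 change in cytosolic RNA was 0.92 ± 0.193 (SE) at 1 h against control (adjusted p = 0.000815, edgeR), but how much of it belonged to Tm7sf2 cannot be told apart.

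The cells were mouse embryonic fibroblasts (MEFs), cultured connective tissue cells, grown in serum-containing medium in every group. Thapsigargin blocks the pump that fills the endoplasmic reticulum (ER) with calcium and so causes ER stress. It was given for 16 h with an inhibitor of the ER stress kinase PERK added for the last 4 h, and, as a time series without inhibitor, for 0 h (control), 1 h and 16 h. Each of these 4 conditions had 4 replicates, and cytosolic RNA and RNA from polysomes (mRNAs with more than 4 ribosomes in a sucrose gradient) were sequenced from every one of the 16 samples, giving 32 libraries. The labels do not give the genotype or strain of the cells, either drug dose, the inhibitor's name or whether a solvent control was used. Nor do they say that replicates were separate cultures, so every p-value measures scatter among these samples that may be technical in part.

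SREBPs are transcription factors that are made as precursors in the ER membrane. When ER cholesterol is ample, SCAP, which escorts them, is held back by INSIG proteins. When it is low, SCAP carries them to the Golgi, where the proteases S1P and S2P release the active part, which goes to the nucleus. SREBP-2, from Srebf2, mainly switches on sterol synthesis, and SREBP-1, from Srebf1, mainly switches on fatty acid synthesis. Sterols are built from acetyl-CoA through mevalonate, isoprenoids, squalene and lanosterol. Fatty acids are built from the same acetyl-CoA by ATP citrate lyase, acetyl-CoA carboxylase and fatty acid synthase, and are then elongated and desaturated. PERK phosphorylates the translation factor eIF2, which lowers most protein synthesis while a few mRNAs, such as Atf4, are translated better.

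Libraries held 19.32 to 41.78 M counts, and all 29 genes passed the filter on low counts. The ER stress marker Hspa5, an ER chaperone, had a log2 change in cytosolic RNA of 1.61 at 1 h and 4.06 at 16 h against control, and -1.30 with the inhibitor against 16 h alone (all called). The log2 change in the polysome to cytosolic ratio of Atf4 was 2.56, 2.47 and -2.69 in the same comparisons (all called). At least 5 CPM was reached by 10 of 12 fibroblast markers in every condition. Their summed level per library ran from 8990 to 12600 CPM in control cells, 19900 to 24700 CPM at 1 h, 4380 to 5160 CPM at 16 h and 4350 to 5030 CPM with the inhibitor; its part in the results was not tested. No marker on the adipocyte, macrophage, epithelial, endothelial or hepatocyte list reached 5 CPM, and the summed adipocyte markers stayed at or under 1.76 CPM, with Plin1 and Cfd at 0 in 3 conditions or more. Libraries of 1 condition also differed in how much of the count fell on GC-rich genes, which is described with its effect on these genes further on. Levels are CPM (read counts scaled to library size) scaled by TMM factors within the 16 libraries of a kind, so each change is relative to the other RNAs of the library. In such bulk samples fewer cells of a kind and less RNA per cell cannot be told apart.

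The promoters of these genes are shown because most of the sterol enzymes moved together. SREBPs bind sterol regulatory elements, usually next to the factors NF-Y and Sp1. Promoters of 24 of the 30 genes, Tm7sf2 among them, were found by symbol in RefSeq (GRCm38.p6), each from 250 bases before to 50 bases after a transcription start. The NF-Y box CCAAT, on either strand, was present in 20 of these 24 genes, namely 13 of 14 sterol enzymes, 4 of 5 regulators and 3 of 5 fatty acid enzymes, against 41.1% of all 27025 genes searched. The Sp1 box GGGCGG was present in 13 of 14, 5 of 5 and 2 of 5, against 38.2% of all genes, and the E-box CACGTG in 5 of 24, against 8.09%. The classical element TCACNCCAC was found in 1 of 24, against 1.44% of all genes. These searches describe letters in a window; they do not show binding, and a gene with no match may hold other forms of the element. The 3 promoters below are given, 5′ to 3′ on the gene's strand, with TCACNCCAC and CCAAT matches on either strand in capitals. Hmgcs1 (chr13:119690101-119690400, + strand) held the only TCACNCCAC match, at position -137 from the start, and 4 CCAAT boxes. Mvk (chr5:114444019-114444318, + strand) held 5 CCAAT boxes and Fasn (chr11:120824498-120824797, - strand) held 3.
Hmgcs1: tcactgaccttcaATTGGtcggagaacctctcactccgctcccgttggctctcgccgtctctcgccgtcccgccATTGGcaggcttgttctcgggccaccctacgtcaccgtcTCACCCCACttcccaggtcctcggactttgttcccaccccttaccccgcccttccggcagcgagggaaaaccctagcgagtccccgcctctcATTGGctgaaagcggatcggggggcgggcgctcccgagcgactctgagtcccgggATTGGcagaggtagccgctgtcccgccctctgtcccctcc
Mvk: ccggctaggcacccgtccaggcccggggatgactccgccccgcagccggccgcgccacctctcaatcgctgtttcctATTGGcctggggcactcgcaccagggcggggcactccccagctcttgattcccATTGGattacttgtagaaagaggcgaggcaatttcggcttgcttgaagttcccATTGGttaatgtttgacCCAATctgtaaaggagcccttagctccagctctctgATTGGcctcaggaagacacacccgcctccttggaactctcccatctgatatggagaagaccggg
Fasn: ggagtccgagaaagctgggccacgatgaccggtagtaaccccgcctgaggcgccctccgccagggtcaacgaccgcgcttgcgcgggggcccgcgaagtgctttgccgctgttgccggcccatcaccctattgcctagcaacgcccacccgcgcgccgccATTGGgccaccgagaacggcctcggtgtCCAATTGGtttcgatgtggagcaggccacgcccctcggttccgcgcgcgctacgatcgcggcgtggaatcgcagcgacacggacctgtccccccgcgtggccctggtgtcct

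In control cells, the level per kilobase of exon ranged widely among the 29 genes. Scd2, a stearoyl-CoA desaturase gene that puts the first double bond into saturated fatty acids, was highest at 451.9 ± 5.97 cytosolic CPM per kb (SD, n = 4). Sqle, which oxidises squalene, followed at 213.1 ± 13.4, and Insig1 and Cyp51, the lanosterol demethylase, came next at 185.5 ± 13.9 and 182.3 ± 14.6 CPM per kb, with ranges that overlapped (171 to 205 and 170 to 203). At the low end stood Mvd, which makes isopentenyl pyrophosphate, at 12.62 ± 3.36, Stard4, a cholesterol carrier, at 8.961 ± 0.669, and Acss2, which activates acetate, at 2.949 ± 0.157 CPM per kb. The levels of Srebf2 (59.67 ± 12.8 CPM per kb) and Srebf1 (16.66 ± 5.58 CPM per kb) did not overlap, with lowest to highest libraries of 43.1 to 74.3 and 9.51 to 23.

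The sterol enzymes and the listed fatty acid enzymes parted in their polysome RNA. After 16 h of thapsigargin, cytosolic RNA of most genes of both groups was lower than in control cells, yet polysome RNA of 3 fatty acid enzymes, Acly, Acaca and Fasn, was higher. The correction for coding length described further on was run for the polysome to cytosolic ratio only, so polysome levels and changes are uncorrected for it. With it, the ratio change at 16 h was called for Acly but not for Acaca or Fasn. The summed cytosolic level of the 16 sterol enzymes was 3062 ± 166 CPM in control cells, 2841 ± 53.5 CPM at 1 h and 1502 ± 63.3 CPM at 16 h (SD, n = 4 each), and their summed polysome level was 5067 ± 277, 3087 ± 92.1 and 2202 ± 54.8 CPM at the same times. The 7 fatty acid enzymes summed to 3779 ± 29.8, 3579 ± 58.2 and 2055 ± 37.8 CPM in cytosolic RNA, and to 5688 ± 128.1, 6729 ± 83.55 and 4335 ± 141.6 CPM in polysome RNA. At 1 h the summed polysome level was thus below control for the sterol enzymes and above control for the fatty acid enzymes, in all 4 libraries of each. Scd2 alone held most of the fatty acid sum, but its own mean polysome level was 4663 CPM in control cells and 4582 CPM at 1 h. Mean polysome levels in control cells and at 1 h were 125.7 and 914.8 CPM for Fasn and 125.3 and 486 CPM for Acly. For Acaca they were 87.4 and 255.5 CPM. Polysome Scd1 and Elovl6 fell, so the rise of the sum at 1 h lay mostly in Fasn, Acly and Acaca.

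**Figure D1:**
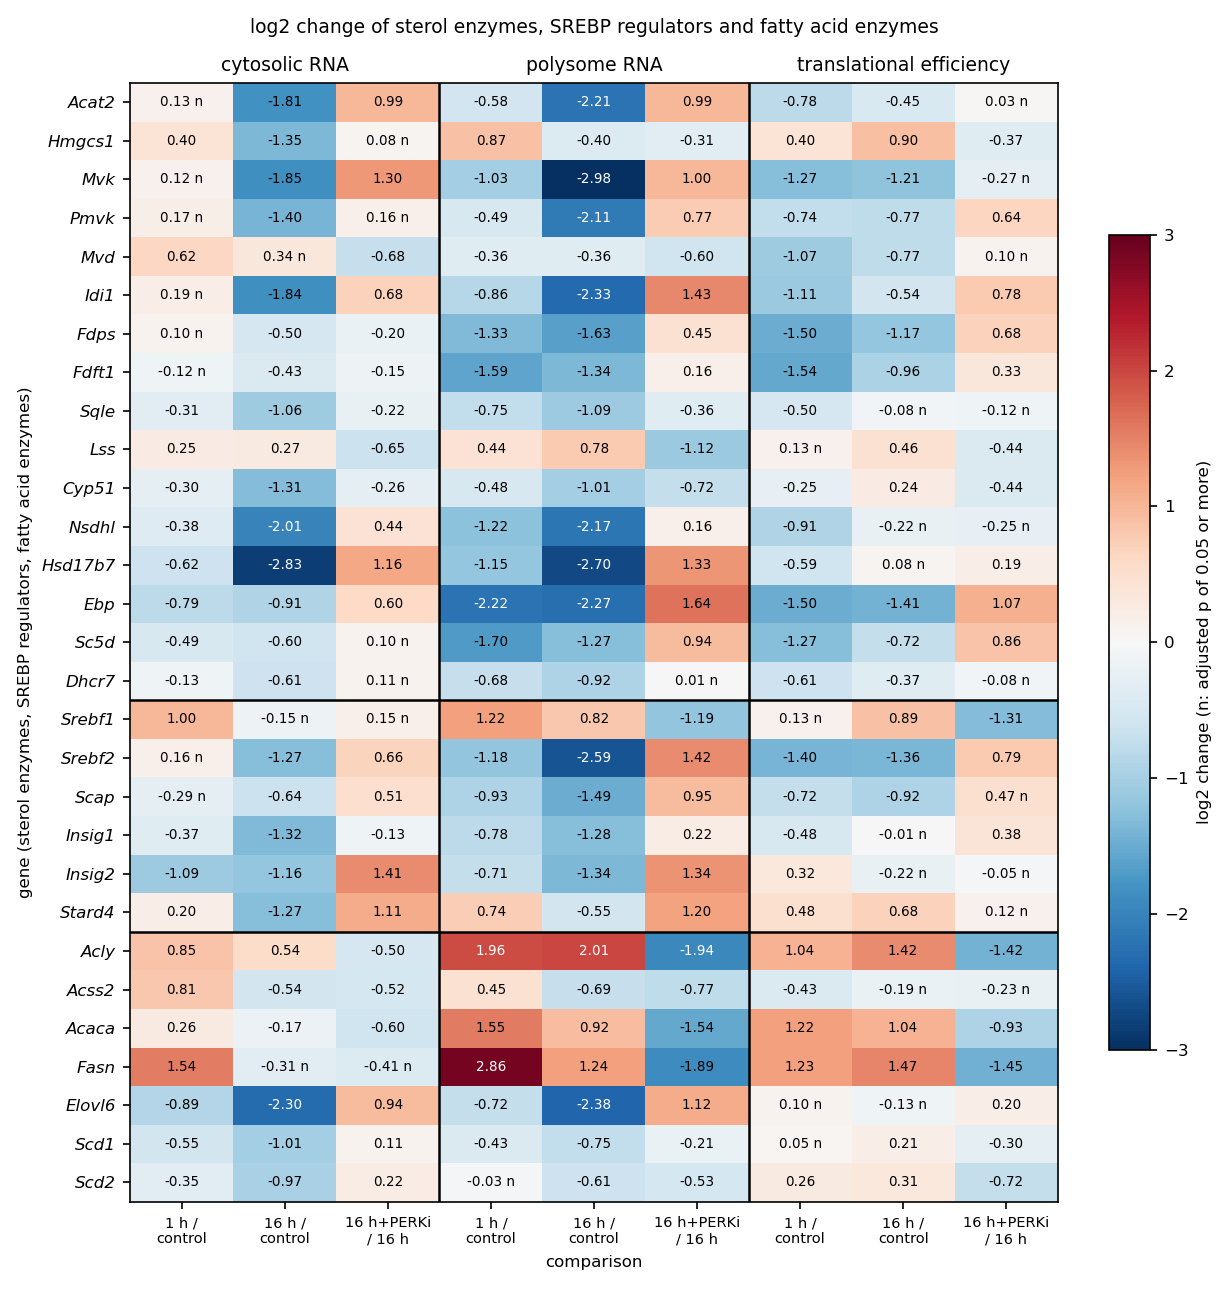
Log2 changes of the 29 genes (rows, by group) in cytosolic RNA, polysome RNA and the polysome to cytosolic ratio (panels), for 1 h and 16 h of thapsigargin against control and for the inhibitor group against 16 h (columns); red is higher, blue is lower, and n marks an adjusted p of 0.05 or more. The sterol enzymes are mostly blue in polysome RNA at 1 h and 16 h, while Acly, Acaca and Fasn are red there and blue with the inhibitor; the ratio changes of Acaca and Fasn at 1 h, and of Acaca at 16 h and with the inhibitor, changed sign with a correction for coding length.

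In cytosolic RNA after 1 h, the 29 genes moved both ways. A call means an adjusted p under 0.05 (Benjamini-Hochberg, over all genes) in edgeR's quasi-likelihood test, and log2 changes are given ± their standard error (SE). Against control, 9 of the 29 were higher and 12 lower, where 28.1% of all 12366 genes tested were higher and 28.1% lower. Among the sterol enzymes 3 were higher, 7 lower and 6 not called, and their median log2 change was -0.01, against 0.003 over all genes. Of the regulators 2 were higher and 2 lower (median -0.07), and of the fatty acid enzymes 4 were higher and 3 lower (median 0.26).

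The 3 sterol enzymes that rose at 1 h were Hmgcs1, Mvd and Lss. Hmgcs1 makes HMG-CoA, the substrate of the step that commits carbon to mevalonate. Its cytosolic level was 463.2, 500.3, 454.4 and 480.97 CPM at 1 h, against 397.4, 335.1, 345.9 and 358.6 CPM in control cells. Every library at 1 h was above every control library, and the log2 change was 0.40 ± 0.0601 (adjusted p = 2.38e-05, edgeR). Mvd had 38.96, 30.2, 33.5 and 33.7 CPM at 1 h, against 14.1, 27.99, 24.6 and 21.9 CPM in control cells. The groups did not overlap, and the log2 change of Mvd was 0.62 ± 0.182 (adjusted p = 0.00884, edgeR), or 0.46 without control replicate 1, the lowest library. Lss, which closes the rings of lanosterol, changed by 0.25 ± 0.046 on the log2 scale (adjusted p = 0.0002).

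The sterol enzymes that fell at 1 h were those of the late pathway and squalene oxidation. Ebp, the sterol isomerase, had the lowest log2 change of them, -0.79 ± 0.0427 (adjusted p = 1.3e-10, edgeR). Hsd17b7, a ketosteroid reductase of the demethylation steps after lanosterol, had 67.5, 66.98, 69.1 and 70.5 CPM at 1 h, against 113.95, 94.8, 106.8 and 106.2 CPM in control cells. No library at 1 h reached the lowest control library, and the log2 change of Hsd17b7 was -0.62 ± 0.0603 (adjusted p = 1.54e-07). Sc5d, Nsdhl, Sqle, Cyp51 and Dhcr7, all of which act after squalene, changed by -0.49, -0.38, -0.31, -0.30 and -0.13; the call of Dhcr7 was lost without any 1 of 5 of the 8 samples. None of the enzymes up to squalene was called lower in cytosolic RNA at 1 h with all libraries. The log2 changes of Acat2, Mvk, Pmvk, Idi1, Fdps and Fdft1 were 0.13, 0.12, 0.17, 0.19, 0.10 and -0.12, and none of these 6 was called. Without control replicate 1 Acat2 (0.18) and Idi1 (0.27) were called higher, and without control replicate 2 Pmvk was called higher (0.24) and Fdft1 lower (-0.14).

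After 16 h the cytosolic RNA of nearly the whole sterol pathway was lower than in control cells. Of the 16 sterol enzymes, 14 fell and 1, Lss, rose, and 5 of 6 regulators and 5 of 7 fatty acid enzymes fell. Over the 29 genes 24 were lower and 2 higher, where 39.4% of all genes were lower and 37.9% higher. The median log2 change was -1.18 for sterol enzymes, -1.21 for regulators and -0.54 for fatty acid enzymes, against -0.01 over all genes. Against 1 h, 25 of the 29 were lower at 16 h and 0 higher (background 37.7% lower and 37.7% higher), with medians of -0.88, -1.05 and -0.61. At an unadjusted p under 0.05, and also with DESeq2, the number higher was 0.

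Hsd17b7 had the lowest change of the 29. Its cytosolic level at 16 h was 14.5, 15.8, 13.9 and 14.9 CPM, below all the control libraries given above. The log2 change was -2.83 ± 0.0657, a level 7.13-fold lower (adjusted p = 2.69e-16, edgeR). Nsdhl, the C4 decarboxylase that works in the same demethylation complex, had 13.96, 11.1, 11.5 and 11.8 CPM at 16 h, against 55.5, 41.9, 46.97 and 49.8 CPM in control cells. Its groups lay far apart, with a log2 change of -2.01 ± 0.103 (adjusted p = 1.11e-11). Hmgcs1, which had risen at 1 h, had 153.9, 131.7, 135.8 and 142.1 CPM at 16 h, below every control library, and a log2 change of -1.35 ± 0.0614 (adjusted p = 2.21e-12). Along the mevalonate branch Acat2, Mvk, Pmvk and Idi1 changed by -1.81 ± 0.0599, -1.85 ± 0.268, -1.40 ± 0.0853 and -1.84 ± 0.087. Fdps and Fdft1, which make farnesyl pyrophosphate and squalene, changed less, by -0.50 ± 0.0595 and -0.43 ± 0.0526. After squalene, Cyp51, Sqle, Ebp, Dhcr7 and Sc5d changed by -1.31, -1.06, -0.91, -0.61 and -0.60. The exceptions were Lss at 0.27 ± 0.0458 (adjusted p = 3.92e-05) and Mvd at 0.34 ± 0.181 (adjusted p = 0.102, not called, but called at 0.47 without 16 h replicate 1 or control replicate 2).

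The regulators differed from each other in time. Insig2, an ER protein that retains SCAP, fell early: it had 51.03, 51.7, 57.03 and 53.7 CPM at 1 h, against 133.7, 100.8, 110.3 and 110.6 CPM in control cells. At 16 h it had 57.3, 47.4, 46.7 and 52.7 CPM. Both treated groups were below every control library, with log2 changes of -1.09 ± 0.0824 at 1 h and -1.16 ± 0.0821 at 16 h (adjusted p = 6.91e-09 and 9.05e-10, edgeR), and the change between the 2 times was not called (-0.06 ± 0.0825). Insig1 is the paralog of Insig2 and itself an SREBP target. It had 551.9, 461.8, 491.1 and 496.9 CPM in control cells and 373.7, 395.2, 384.1 and 394.8 CPM at 1 h. At 16 h its level was 213.5, 198.8, 194.9 and 196.7 CPM. The 3 groups were apart from each other, with log2 changes of -0.37 ± 0.0527 at 1 h and -1.32 ± 0.0536 at 16 h.

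Stard4 encodes a carrier that moves cholesterol between membranes. It had 50.9, 42.5, 47.2 and 45.9 CPM in control cells, 50.7, 57.98, 51.8 and 53.7 CPM at 1 h, and 21.5, 18.4, 18.5 and 18.9 CPM at 16 h. The level at 1 h overlapped control (log2 change 0.20 ± 0.0735, adjusted p = 0.0282, a call lost without any 1 of 3 samples), while all libraries at 16 h were lower (-1.27 ± 0.0759, adjusted p = 8.68e-11).

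The SREBP genes themselves showed different courses. Srebf2 had 218.7, 377.2, 311.7 and 304.1 CPM in control cells, 385.9, 291.5, 347.1 and 325.2 CPM at 1 h, and 93.6, 142.8, 142.8 and 121.8 CPM at 16 h. Control and 1 h overlapped (log2 change 0.16 ± 0.162, not called), and 16 h was below both (against control -1.27 ± 0.165, adjusted p = 3.96e-06). Srebf1 had 40.9, 98.8, 77.7 and 69.1 CPM in control cells, 181.2, 116.4, 152.7 and 123.7 CPM at 1 h, and 41.5, 78.01, 76.9 and 61.7 CPM at 16 h. It was higher at 1 h in every library (1.00 ± 0.249, adjusted p = 0.00306) and overlapped control at 16 h (-0.15 ± 0.249, adjusted p = 0.591). The table does not separate the Srebf1 transcripts for SREBP-1a and SREBP-1c. Scap, the escort, was not called at 1 h (-0.29 ± 0.15) and was lower at 16 h (-0.64 ± 0.151, adjusted p = 0.00116), with overlapping groups.

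Among fatty acid enzymes the early steps rose at 1 h and the later ones fell. Acly, which makes cytosolic acetyl-CoA from citrate, had 255.2, 253.00, 256.7 and 239.4 CPM at 1 h, against 132.6, 141.99, 139.1 and 142.3 CPM in control cells. All libraries at 1 h were higher, by 0.85 ± 0.043 on the log2 scale (adjusted p = 5.87e-11, edgeR). Fasn, the synthase that builds palmitate, had 873.3, 683.8, 786.9 and 693.3 CPM at 1 h, against 164.2, 340.9, 273.5 and 266.02 CPM in control cells. These groups were well apart, and the log2 change of 1.54 ± 0.186 was the highest among the 29 genes. Acss2 had 19.1, 18.9, 20.9 and 20.3 CPM at 1 h, against 12.1, 10.7, 11.3 and 10.98 CPM in control cells, with no overlap and a log2 change of 0.81 ± 0.0659. Acaca, the carboxylase that makes malonyl-CoA, changed by 0.26 ± 0.056 (adjusted p = 0.000768). Elovl6, which elongates palmitate, fell to 222.5, 239.6, 228.1 and 234.8 CPM at 1 h, against 478.9, 390.1, 412.1 and 428.9 CPM in control cells. No libraries of Elovl6 overlapped, and the desaturase genes Scd1 and Scd2 changed in the same direction as Elovl6, by -0.55 ± 0.0398 and -0.35 ± 0.0364, while Elovl6 itself changed by -0.89 ± 0.0579.

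At 16 h Acly was the only one of the 7 fatty acid enzymes still called higher in cytosolic RNA. It had 206.03, 192.9, 202.3 and 206.4 CPM, above every control library, a log2 change of 0.54 ± 0.0429 (adjusted p = 4.03e-09, edgeR). Fasn had 157.7, 230.95, 243.3 and 211.3 CPM, which overlapped control (log2 change -0.31 ± 0.183, adjusted p = 0.135); without control replicate 1 the change was -0.48 and called (adjusted p = 0.00877). Acss2 had 7.83, 8.04, 7.06 and 7.93 CPM and lay below all control libraries (-0.54 ± 0.0677). Elovl6 was at 92.3, 84.5, 84.5 and 85.9 CPM, a log2 change of -2.30 ± 0.0605 (adjusted p = 1.39e-15). Scd1, with 183.5, 166.3, 171.6 and 175.4 CPM against 356.95, 343.96, 349.8 and 351.2 CPM in control cells, changed by -1.01 ± 0.04, Scd2 by -0.97 ± 0.0367, and Acaca by -0.17 ± 0.056 with overlapping groups.

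**Figure D2:**
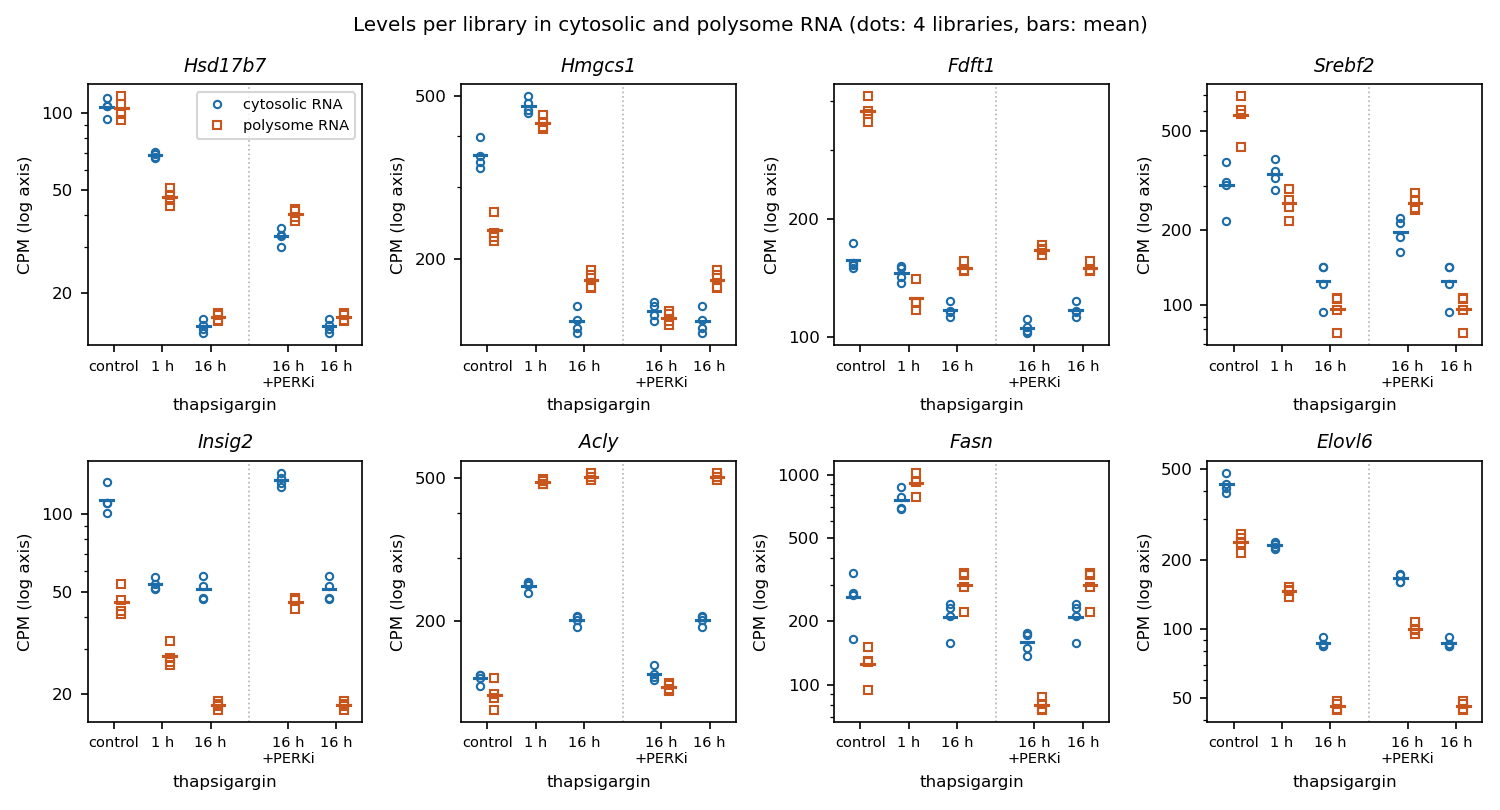
Level in each library (CPM, log axis) of 8 genes in control cells, at 1 h and at 16 h, and right of the dotted line with the inhibitor beside 16 h alone; blue circles are cytosolic and orange squares polysome libraries (n = 4 each), and bars are means. Hsd17b7 and Elovl6 step down with time in both RNAs, Fdft1 and Srebf2 drop in polysome RNA at 1 h while their cytosolic libraries at 1 h and in control cells overlap, and polysome Acly and Fasn climb at 1 h; with the inhibitor Insig2 lies within or above the control range and Acly lies at 128.1 to 134.9 CPM in polysome RNA.

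Polysome RNA of the sterol enzymes was already lower at 1 h. Against control 14 of 16 sterol enzymes fell and 2, Hmgcs1 and Lss, rose, with a median log2 change of -0.80, against 0.03 over all genes. Regulators divided into 2 higher and 4 lower (median -0.75), and fatty acid enzymes into 4 higher and 2 lower (median 0.45). Over the 29 genes 20 were lower and 8 higher, where 38.5% of all 12065 genes were lower and 41.1% higher. The lowest was Ebp at -2.22 ± 0.0447 (adjusted p = 1.09e-19, edgeR), followed by Sc5d, Fdft1 and Fdps at -1.70 ± 0.0644, -1.59 ± 0.0549 and -1.33 ± 0.0509. Fdft1 had 116.7, 121.8, 122.5 and 140.4 polysome CPM at 1 h, against 375.6, 371.00, 410.6 and 353.96 CPM in control cells. Its cytosolic levels, 137.1, 142.1, 149.7 and 151.3 CPM at 1 h against 173.4, 149.4, 154.03 and 152.4 CPM in control cells, overlapped at the edge and were not called.

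Hmgcs1 went the other way in polysome RNA. It had 434.1, 421.6, 415.9 and 450.5 polysome CPM at 1 h, against 227.1, 231.7, 260.8 and 221.3 CPM in control cells, a log2 change of 0.87 ± 0.0515 (adjusted p = 2.33e-12, edgeR). At 16 h it had 170.01, 187.9, 182.5 and 171.1 polysome CPM, below all control libraries (-0.40 ± 0.0514). Thus Hmgcs1 rose at 1 h and fell at 16 h in both RNAs, whereas Acat2, the thiolase that acts before it, was not called at 1 h in cytosolic RNA and fell in polysome RNA (-0.58).

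At 16 h, 15 of 16 sterol enzymes were lower and 1, Lss, higher in polysome RNA (median -1.48), regulators divided into 5 lower and 1 higher (median -1.31), and fatty acid enzymes into 4 lower and 3 higher (median -0.61). This made 24 lower and 5 higher of 29, where 42.9% of all genes were lower and 42.3% higher. Mvk, the mevalonate kinase, had 10.6, 9.39, 6.09 and 11.2 polysome CPM at 16 h, against 72.6, 77.5, 50.6 and 92.96 CPM in control cells. The groups were far apart, and the log2 change of -2.98 ± 0.214 was the lowest of the 29 in polysome RNA (adjusted p = 6.91e-09, edgeR). With a correction for GC content Mvk was at -2.47, and Idi1 was the lowest at -2.88. Acly had 516.1, 492.4, 502.3 and 503.6 polysome CPM at 16 h and 479.5, 494.9, 480.96 and 488.5 CPM at 1 h, against 125.9, 113.7, 139.1 and 122.4 CPM in control cells. Both treated groups of Acly were 3.88-fold or more above control (log2 changes 1.96 ± 0.0488 at 1 h and 2.01 ± 0.0489 at 16 h). Fasn had 129.5, 127.9, 94.2 and 151.4 polysome CPM in control cells, 920.7, 933.4, 1022 and 782.9 CPM at 1 h, and 334.2, 293.3, 220.7 and 340.4 CPM at 16 h. It was highest at 1 h, by 2.86 ± 0.158 on the log2 scale (7.27-fold), and remained above control at 16 h by 1.24 ± 0.151 (2.36-fold). Acaca changed likewise, by 1.55 ± 0.0573 at 1 h and 0.92 ± 0.0566 at 16 h.

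Set against 1 h, polysome RNA at 16 h was lower for 22 of the 29 genes and higher for 3 (background 40% lower and 38.4% higher). The 3 were Fdft1, Lss and Sc5d, at 0.25 ± 0.054, 0.33 ± 0.0461 and 0.43 ± 0.0635. Of the fatty acid enzymes 6 were lower, and Acly was not called (0.05 ± 0.0468).

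Translational efficiency (TE) is here the polysome to cytosolic ratio of a gene, tested by the interaction between kind of RNA and condition over all 32 libraries. At 1 h TE was lower than in control cells for 14 of 16 sterol enzymes and higher for 1, Hmgcs1. It was lower for 3 regulators and higher for 2, and lower for 1 fatty acid enzyme, Acss2, and higher for 4. In all 18 of 29 were lower and 7 higher, where 34.4% of 12561 genes were lower and 33.4% higher. The median log2 change in TE was -0.84 for sterol enzymes, -0.18 for regulators and 0.26 for fatty acid enzymes, against -0.01 over all genes. Fdft1 had log2 ratios of 0.16, 0.11, 0.06 and 0.24 at 1 h, against 1.52, 1.75, 1.84 and 1.64 in control cells. The groups did not overlap, and the change of -1.54 ± 0.0772 (adjusted p = 3.98e-12, edgeR) was the lowest of the 29, next to Ebp at -1.50 ± 0.0627 and Fdps at -1.50 ± 0.0857. With a correction for coding length Fdft1 was at -1.24 and Srebf2 was the lowest at -1.98. With one for GC content Fdft1 was at -1.48 and Sc5d was the lowest at -1.51. Hmgcs1 had log2 ratios of 0.30, 0.09, 0.22 and 0.26 at 1 h, against -0.40, -0.09, 0.01 and -0.27 in control cells, a change of 0.40 ± 0.0944 (adjusted p = 0.000943).

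Both SREBP genes encode long mRNAs, yet against control at 1 h and 16 h only Srebf2 had a TE called lower. These genes were not tested against each other. Srebf2 had log2 ratios of -0.24, 0.20, 0.11 and -0.22 at 1 h, against 1.82, 1.13, 0.89 and 1.61 in control cells, and a change of -1.40 ± 0.219 (adjusted p = 4.07e-05, edgeR). At 16 h its log2 ratios were 0.54, -0.21, -0.46 and 0.15, and the change was -1.36 ± 0.221. All treated libraries were below all control libraries at both times. Its polysome level was 248.3, 265.4, 293.3 and 218.4 CPM at 1 h and 106.6, 95.4, 77.2 and 106.3 CPM at 16 h, against 584.03, 609.6, 431.8 and 689.9 CPM in control cells. Scap changed in TE by -0.72 ± 0.201 at 1 h and -0.92 ± 0.202 at 16 h. The TE of Srebf1 was not called at 1 h (0.13 ± 0.347). At 16 h its change of 0.89 ± 0.351 (adjusted p = 0.0383, edgeR) had overlapping groups and was lost without any 1 of 4 of the 8 samples. With a correction for coding length Srebf1 was at -0.45 at 1 h and 0.30 at 16 h, neither called. With a correction for GC content it was at 0.49 and 1.25, both called. Among the other regulators, TE of Stard4 rose by 0.48 ± 0.106 at 1 h and 0.68 ± 0.108 at 16 h. TE of Insig1 fell at 1 h (-0.48 ± 0.0826, but -0.07 and not called with a correction for coding length). At 16 h TE of Insig1 was not called (-0.01 ± 0.0826), but was called at 0.47 with a correction for coding length and at -0.15 with one for GC content. Insig2 was called at 1 h at 0.32 ± 0.114, lost without any 1 of 3 samples. Its change was 0.64 with a correction for coding length and 0.06, not called, with one for GC content.

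At 16 h TE was lower than in control cells for 10 sterol enzymes and higher for 3, Hmgcs1, Lss and Cyp51; the call of Cyp51 (0.24 ± 0.0951) was lost without any 1 of 4 of the 8 samples. With a correction for coding length 6 sterol enzymes were lower and 4 higher. Of the 29 genes 12 were lower and 10 higher, where 33% of all genes were lower and 31.1% higher. By group the median log2 change was -0.49 for sterol enzymes, -0.12 for regulators and 0.31 for fatty acid enzymes, against -0.04 over all genes. No fatty acid enzyme was lower and 5 of 7 were higher: Fasn at 1.47 ± 0.253 (but 0.30 and not called with a correction for coding length), Acly at 1.42 ± 0.0695, Acaca at 1.04 ± 0.0916 (but -0.08 with a correction for coding length), Scd2 at 0.31 ± 0.0541 and Scd1 at 0.21 ± 0.0618. Elovl6 and Acss2 were at -0.13 and -0.19 (not called), but Elovl6 was called higher at 0.36 with a correction for coding length. At an unadjusted p under 0.05, and with DESeq2, the number of fatty acid enzymes with a lower TE was also 0, but Acss2 was called lower with a correction for coding length (-0.43, adjusted p = 0.00119) and Elovl6 with one for GC content (-0.31, adjusted p = 1.16e-06). Between 1 h and 16 h the difference in TE itself was called higher for 12 of 16 sterol enzymes and lower for 0, and over the 29 genes for 14 higher and 2 lower, where 14.5% of all genes were higher and 13.6% lower. The 2 lower were Insig2 (-0.54 ± 0.116) and Elovl6 (-0.23 ± 0.0819), and the call of Elovl6 was lost without any 1 of 7 of the 8 samples. The highest called changes were those of Nsdhl at 0.69 ± 0.127 and Hsd17b7 at 0.68 ± 0.0791.

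**Figure D3:**
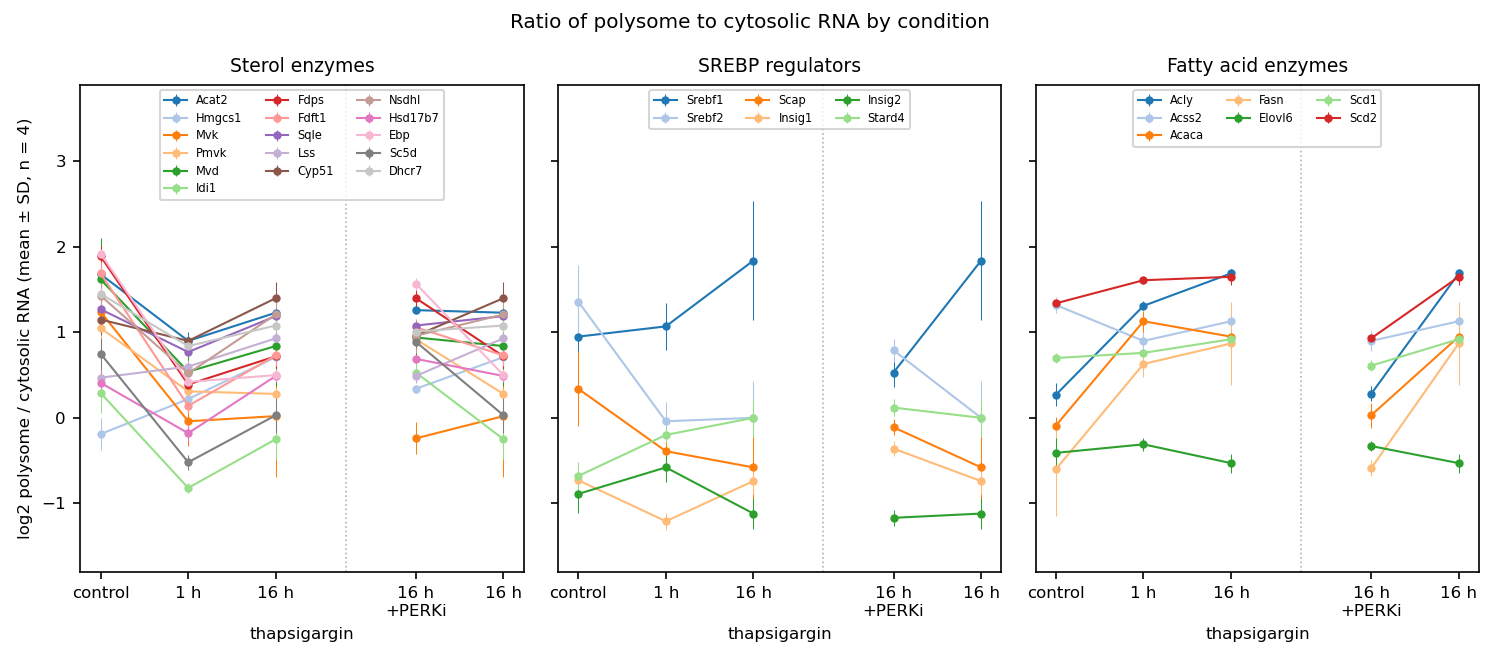
Mean log2 ratio of polysome to cytosolic RNA (± SD, n = 4 samples) of each gene in control cells, at 1 h and at 16 h, and right of the dotted line with the inhibitor beside 16 h alone, in 1 panel per group of genes. Most sterol enzymes drop at 1 h and lie between 1 h and control at 16 h, while Acly, Acaca and Fasn climb at 1 h and 16 h and lie near control with the inhibitor.

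With the PERK inhibitor for the last 4 h, the 3 groups parted mainly in polysome RNA and TE. In cytosolic RNA against 16 h alone, 6 sterol enzymes were higher, 6 lower and 4 not called, 4 regulators were higher and 1 lower, and 3 fatty acid enzymes were higher and 3 lower. This gave 13 higher and 10 lower of 29, near the shares over all genes of 42.2% higher and 32.5% lower. The medians were 0.10, 0.58 and -0.41, against 0.10 over all genes. In polysome RNA 10 sterol enzymes were higher and 5 lower, 5 regulators higher and 1 lower, and 1 fatty acid enzyme higher and 6 lower. These 16 higher and 12 lower of 29 stood beside 42.1% higher and 40.7% lower among all genes, with medians of 0.30, 1.08 and -0.77 against 0.04. TE was higher for 7 and lower for 3 sterol enzymes, higher for 2 and lower for 1 regulator, and higher for 1 and lower for 5 fatty acid enzymes, or 10 higher and 9 lower of 29, where 26.4% of all genes were higher and 33.7% lower. The fatty acid enzyme with a higher TE was Elovl6 (0.20 ± 0.0818), whose call was lost without any 1 of 6 of the 8 samples and whose sign turned to -0.22 with a correction for coding length.

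The sum over sterol enzymes hardly moved. Their summed cytosolic level was 1482 ± 52.2 CPM with the inhibitor and 1502 ± 63.3 CPM at 16 h alone, and the summed polysome level 2211 ± 56.1 and 2202 ± 54.8 CPM (SD, n = 4 each). Beneath the sum, genes moved in opposite directions. Hsd17b7 had 30.1, 33.4, 33.1 and 35.7 cytosolic CPM with the inhibitor, against 14.5, 15.8, 13.9 and 14.9 CPM at 16 h alone, a log2 change of 1.16 ± 0.0642 (adjusted p = 4.14e-11, edgeR). Mvk had 34.2, 22.2, 33.3 and 27.6 CPM with the inhibitor, against 7.54, 13.1, 14.999 and 12.2 CPM at 16 h alone, a change of 1.30 ± 0.267. Neither gene's groups overlapped, and Acat2, Idi1, Ebp and Nsdhl also rose, by 0.99, 0.68, 0.60 and 0.44. Mvd, in contrast, fell to 19.2, 14.7, 18.8 and 17.4 CPM with the inhibitor, against 20.1, 30.6, 33.3 and 28.03 CPM at 16 h alone (-0.68 ± 0.183). Lss changed by -0.65 ± 0.0461, Cyp51 by -0.26 ± 0.0665, Sqle by -0.22 ± 0.0482, Fdps by -0.20 ± 0.0595 and Fdft1 by -0.15 ± 0.0527, the last of which was lost without 16 h replicate 1. Hmgcs1 had 141.1, 156.8, 145.99 and 153.4 CPM with the inhibitor, against 153.9, 131.7, 135.8 and 142.1 CPM at 16 h alone, and was not called (0.08 ± 0.0606).

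In the polysome to cytosolic ratio, Ebp, Sc5d, Idi1, Fdps, Pmvk and Fdft1 rose with the inhibitor by 1.07, 0.86, 0.78, 0.68, 0.64 and 0.33 on the log2 scale. For Fdft1 the log2 ratios were 1.10, 0.97, 1.08 and 1.09 with the inhibitor, against 0.60, 0.73, 0.89 and 0.69 at 16 h alone, with no overlap (adjusted p = 0.00106, edgeR). Those of Hmgcs1 were 0.38, 0.28, 0.37 and 0.35 with the inhibitor, against 0.49, 0.89, 0.85 and 0.62 at 16 h alone. Hmgcs1 was thus lower in every library (-0.37 ± 0.095), as were Lss (-0.44 ± 0.0721) and Cyp51 (-0.44 ± 0.0953) by the test; Lss was at -0.07 and not called with a correction for coding length. The call of Hsd17b7 (0.19 ± 0.0791, adjusted p = 0.0421) was lost without any 1 of 5 of the 8 samples, and its sign turned to -0.07 with a correction for coding length.

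Most regulators rose with the inhibitor. Insig2 had 132.2, 144.7, 127.1 and 138.6 cytosolic CPM with the inhibitor, against 57.3, 47.4, 46.7 and 52.7 CPM at 16 h alone. The groups were far apart, with a log2 change of 1.41 ± 0.0824 (adjusted p = 8.78e-11, edgeR), the highest of the 29 in cytosolic RNA. Stard4 had 37.3, 44.9, 39.9 and 44.5 CPM with the inhibitor, against 21.5, 18.4, 18.5 and 18.9 CPM at 16 h alone (1.11 ± 0.0757). Srebf2 had 214.5, 164.3, 224.5 and 187.6 CPM, against 93.6, 142.8, 142.8 and 121.8 CPM (0.66 ± 0.164, adjusted p = 0.00197). All 3 were higher in every library with the inhibitor. Polysome Srebf2 was 281.5, 246.7, 264.4 and 240.5 CPM with the inhibitor, against 106.6, 95.4, 77.2 and 106.3 CPM at 16 h alone (1.42 ± 0.141), and its TE rose by 0.79 ± 0.22 (adjusted p = 0.00613). Scap rose by 0.51 ± 0.15 in cytosolic and 0.95 ± 0.127 in polysome RNA. The paralog of Insig2 did not follow it: Insig1 had 177.9, 190.2, 175.4 and 190.4 cytosolic CPM with the inhibitor, against 213.5, 198.8, 194.9 and 196.7 CPM at 16 h alone (-0.13 ± 0.053, adjusted p = 0.0336, lost without any 1 of 3 samples), and 108.6, 106.9, 108.6 and 108.9 polysome CPM, against 90.4, 95.6, 98.4 and 87.1 CPM (0.22 ± 0.0534). Srebf1 was not called in cytosolic RNA (0.15 ± 0.249) and fell in polysome RNA, with 88.3, 73.9, 81.5 and 67.3 CPM with the inhibitor, against 203.4, 179.4, 116.04 and 209.98 CPM at 16 h alone. Its polysome groups were apart (-1.19 ± 0.216, adjusted p = 0.000174), and its TE changed by -1.31 ± 0.348, or by -0.69 with a correction for coding length (adjusted p = 0.104, not called).

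Polysome RNA of 6 of the 7 fatty acid enzymes fell with the inhibitor. Acly had 132.98, 129.5, 128.1 and 134.9 polysome CPM with the inhibitor, against 516.1, 492.4, 502.3 and 503.6 CPM at 16 h alone. The log2 change of Acly was -1.94 ± 0.0486, 3.83-fold lower (adjusted p = 2.1e-18, edgeR), with no library near the other group. Fasn had 86.8, 75.8, 81.1 and 76.4 polysome CPM with the inhibitor, against 334.2, 293.3, 220.7 and 340.4 CPM at 16 h alone (-1.89 ± 0.154, 3.71-fold lower). Acaca changed by -1.54 ± 0.0574, Acss2 by -0.77 ± 0.0712, Scd2 by -0.53 ± 0.0348 and Scd1 by -0.21 ± 0.0386; the sign of Scd1 turned to 0.03 with a correction for GC content. Elovl6 was the exception, with 95.2, 106.8, 100.2 and 99.4 polysome CPM with the inhibitor, against 47.1, 44.7, 48.6 and 44.5 CPM at 16 h alone, a rise of 1.12 ± 0.0567. It was also higher in cytosolic RNA, at 159.7, 174.5, 160.6 and 172.3 CPM with the inhibitor, against 92.3, 84.5, 84.5 and 85.9 CPM at 16 h alone (0.94 ± 0.0586). The cytosolic RNA of Acly was 137.3, 151.00, 139.8 and 143.3 CPM with the inhibitor, against 206.03, 192.9, 202.3 and 206.4 CPM (-0.50 ± 0.0428). That of Acss2 was 5.003, 5.51, 5.47 and 5.52 CPM, against 7.83, 8.04, 7.06 and 7.93 CPM (-0.52 ± 0.0701). TE changed by -1.45 ± 0.252 for Fasn (but -0.46 and not called with a correction for coding length), -1.42 ± 0.0693 for Acly, -0.93 ± 0.0918 for Acaca (but 0.04 with a correction for coding length), -0.72 ± 0.0542 for Scd2 and -0.30 ± 0.0619 for Scd1.

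Set against control, the inhibitor group kept low sterol enzyme levels. In cytosolic RNA 14 of 16 sterol enzymes were lower and 0 higher, 2 regulators lower and 1 higher, and 6 fatty acid enzymes lower. The total of 22 lower and 1 higher of 29 stood beside 35.2% lower and 38.1% higher among all genes, with medians of -0.77, -0.15 and -0.77, against 0.04. In polysome RNA all 16 sterol enzymes, 3 regulators and 6 fatty acid enzymes were lower and 1 regulator, Stard4, was higher (0.66 ± 0.071), which made 25 lower and 1 higher, where 40.3% of all genes were lower and 36.8% higher. TE was lower for 12 and higher for 4, where 27.1% of all genes were lower and 16.3% higher. The lower TE calls of Mvd, Sqle and Srebf2 were lost without any 1 of 5, 5 and 6 of the 8 samples. With a correction for coding length 7 sterol enzymes had a lower TE in place of 9. Insig2 was the gene above control in cytosolic RNA, at 0.25 ± 0.0802 (adjusted p = 0.0094, edgeR) with overlapping groups. Acly did not differ detectably from control in cytosolic RNA (0.04 ± 0.0428), polysome RNA (0.07 ± 0.0475) or TE (0.01 ± 0.0694). With a correction for GC content, however, Acly was called higher in polysome RNA (0.23) and TE (0.18). The lowest cytosolic changes were those of Hsd17b7, Nsdhl and Cyp51, at -1.67 ± 0.0619, -1.57 ± 0.1 and -1.56 ± 0.0678. The comparisons with control share its libraries, and those with 16 h alone share that group, so they are not independent of each other. No group had the inhibitor without thapsigargin, so effects of the inhibitor apart from stress cannot be told apart.

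TE changes in these data moved with coding length over all genes, and the 3 groups of genes differ in length. Coding length could be assigned to 96.5% of the genes tested for TE. The median log2 change in TE at 1 h against control was -0.20 for 3698 genes of up to 1000 nt, -0.21 for 4690 genes of 1000 to 2000 nt, 0.29 for 2005 genes of 2000 to 3000 nt and 0.88 for 1729 longer genes. At 16 h against control these medians were -0.33, -0.15, 0.35 and 0.85, and with the inhibitor against 16 h alone 0.25, -0.01, -0.50 and -0.88. The sterol enzymes run from 576 nt (Pmvk) to 2199 nt (Lss), with a median of 1203 nt. Fatty acid enzymes run from 801 nt (Elovl6) to 7512 nt (Fasn), with Acaca at 7035 nt and Acly at 3303 nt. The collected fractions held mRNAs with more than 4 ribosomes, and how far that threshold contributes for short and long mRNAs was not tested. With offsets that remove the trend with coding length, Acly kept its calls, at 0.49, 0.85 and -0.81 for 1 h and 16 h against control and the inhibitor against 16 h alone. Acaca did not, at -0.05, -0.08 and 0.04, and neither did Fasn, at -0.10, 0.30 and -0.46. Scd1 was at 0.48, 0.64 and -0.59, Scd2 at 0.68, 0.72 and -1, and Elovl6 at 0.52, 0.36 and -0.22, all called. Against control, 4 fatty acid enzymes thus had a higher TE at each time with these offsets and 1, Acss2, a lower one (-0.61 and -0.43). Srebf2, at 3390 nt, moved further, at -1.98, -1.95 and 1.40, as did Scap, at 3828 nt, with -1.41, -1.59 and 1.14. Among sterol enzymes Ebp remained at -1.15, -0.97 and 0.67, Fdft1 at -1.24, -0.67 and 0.20, and Fdps at -1.07, -0.74 and 0.39, all called. At 16 h against control the calls of Acat2 (-0.11), Idi1 (-0.04), Mvd (-0.44) and Sc5d (-0.22) were lost and Hsd17b7 was called higher (0.49), so that 6 sterol enzymes were lower in place of 10. At 1 h 13 were lower in place of 14, Cyp51 (-0.11) being lost.

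**Figure D4:**
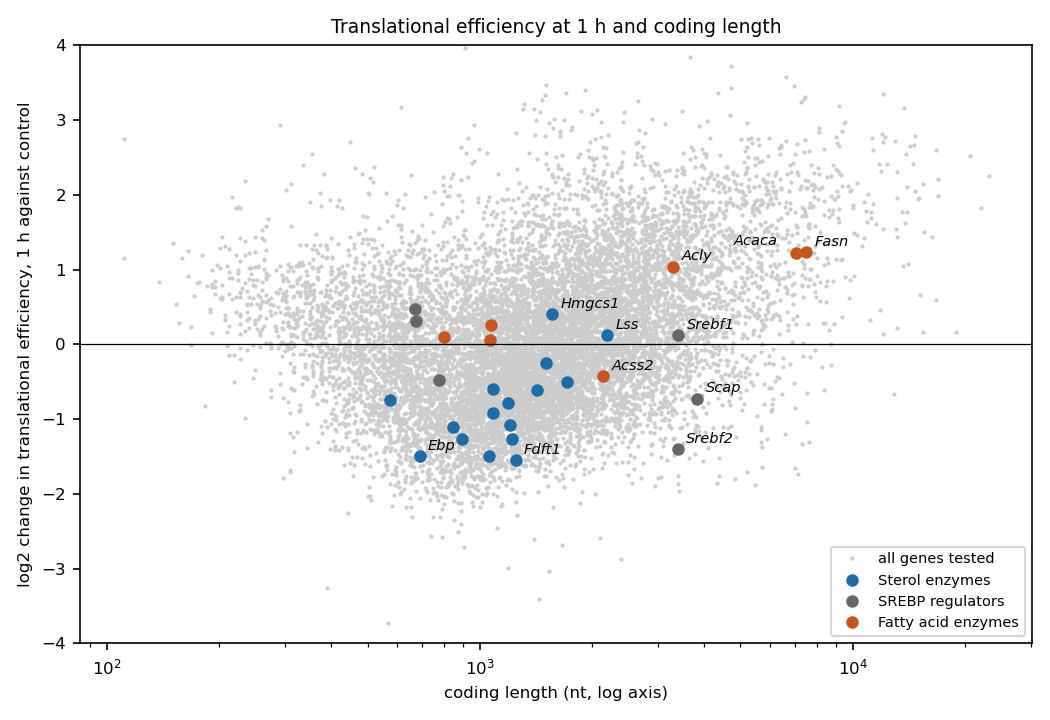
Log2 change in the polysome to cytosolic ratio at 1 h against control (y axis, drawn from -4 to 4) against coding length (nt, log axis) for all genes with a known length (grey) and for the sterol enzymes, SREBP regulators and fatty acid enzymes (coloured, some named). Acaca and Fasn lie at the long end, and their changes are -0.05 and -0.10 once the trend is removed. Genes longer than 3000 nt have a median of 0.88, and Srebf2 and Scap, at -1.40 and -0.72, lie below that median.

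The share of counts on GC-rich genes varied among replicates, and some of the genes described here are GC-rich. An index of this was the median log2 deviation from the mean of the 16 libraries of a kind over 1936 genes with a GC content of at least 57%, minus that over 2513 genes under 45%. It was -0.66, 0.37, 0.04 and -0.02 in the cytosolic control libraries and -0.85, -0.07, -0.05 and -0.32 at 16 h. In the cytosolic libraries it was 0.50, 0.06, 0.37 and 0.12 at 1 h and 0.35, -0.10, 0.35 and 0.02 with the inhibitor. In polysome libraries it was 0.44, 0.51, 0.00 and 0.79 in control cells, 0.05, 0.04, 0.32 and -0.21 at 1 h, -0.39, -0.62, -0.94 and -0.31 at 16 h, and 0.30, 0.01, 0.17 and 0.00 with the inhibitor. The polysome libraries at 16 h were thus all below those of the other conditions. Mvk, Mvd, Scap, Srebf1, Srebf2 and Fasn, with a GC content of 60%, 59.3%, 59.1%, 58.4%, 57.9% and 57.9%, had their lowest cytosolic control level in replicate 1, where the index was lowest. Offsets that remove the trend with GC content, a setting chosen after seeing the data, gave cytosolic changes at 16 h against control of -1.67 for Mvk, -1.10 for Srebf2 and -0.46 for Scap, all still called, and 0.51 for Mvd, now called (adjusted p = 6.05e-08, edgeR). The polysome change of Mvd at 16 h turned from -0.36 to 0.14 with this correction, those of Mvk, Srebf2 and Hmgcs1 became -2.47, -2.10 and -0.86, and that of Fasn became 1.72. With the inhibitor against 16 h alone the cytosolic changes were 0.91 for Mvk, 0.36 for Srebf2, 0.15 for Scap and -0.71 for Fasn, the last now called (adjusted p = 2.87e-07). The TE change of Hmgcs1 at 1 h was 0.09 and that of Srebf2 -1.06 under the same offsets. At 16 h against control the TE calls of Cyp51 (0.02), Dhcr7 (-0.13) and Scd1 (0.01) were lost, and Nsdhl (-0.45) and Sqle (-0.13) were called lower. Such offsets also take out any real change that runs with GC content, and the part of GC content in these results was not tested further. Without control replicate 1, cytosolic Scap was called at 1 h (-0.43, adjusted p = 0.00767) and so were, with the inhibitor against control, Mvk (-0.76, adjusted p = 0.00571) and Mvd (-0.50, adjusted p = 0.00675), none of which was called with all libraries. Without 16 h replicate 1, cytosolic Fasn was called with the inhibitor against 16 h alone (-0.52, adjusted p = 0.0202).

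**Figure D5:**
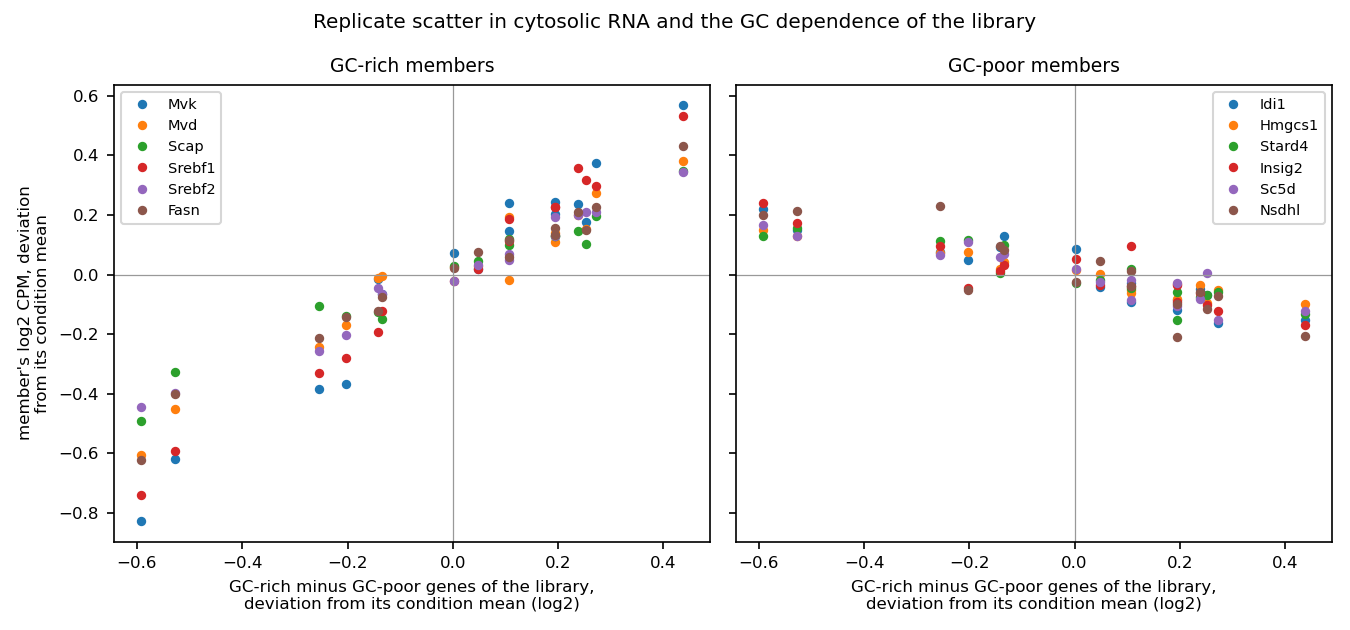
Deviation of a gene's cytosolic level from its condition mean (log2 CPM, y axis) against the deviation of the library's GC index from its condition mean (x axis, log2) in the 16 cytosolic libraries, for 6 GC-rich genes (Mvk, Mvd, Scap, Srebf1, Srebf2, Fasn) and 6 genes drawn as GC-poor (Idi1, Hmgcs1, Stard4, Insig2, Sc5d, Nsdhl). Of the latter, Sc5d (45.4%) and Nsdhl (45.8%) lie just above the 45% cut of the index, and Pmvk (57%) is not drawn. The GC-rich genes climb with the index and the GC-poor ones decline; points of 1 library share its depth and composition.

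Other genes of the pathway were counted from lists made beside these groups. Of 10 genes for processing and degradation of SREBP, SCAP and INSIG, 0 were higher and 10 lower in cytosolic RNA at 1 h, 1 higher and 7 lower at 16 h against control, and 7 higher and 2 lower with the inhibitor against 16 h alone. The shares over all genes, for this and the next lists, were 28.1% higher and 28.1% lower at 1 h, 37.9% and 39.4% at 16 h, and 42.2% and 32.5% with the inhibitor. Mbtps1, which encodes S1P, changed by -0.59 ± 0.0455, -0.91 ± 0.0457 and 0.34 ± 0.0455, and Rnf145, a ubiquitin ligase of the sterol system, by -1.16 ± 0.0486, -0.62 ± 0.0478 and 1.21 ± 0.0481. Erlin1, of the ER complex that degrades membrane proteins, went a different way, at -0.59 ± 0.067, 1.24 ± 0.0672 and -2.18 ± 0.0693. TE of the 10 was lower for 7 and higher for 1 at 1 h, lower for 8 and higher for 1 at 16 h, and higher for 7 and lower for 2 with the inhibitor, where over all genes TE was higher for 33.4% and lower for 34.4% at 1 h, 31.1% and 33% at 16 h, and 26.4% and 33.7% with the inhibitor. Of 7 further genes of sterol synthesis and uptake, 2 were higher and 3 lower at 1 h, 1 higher and 6 lower at 16 h, and 3 higher and 1 lower with the inhibitor. Msmo1, the methyl sterol oxidase upstream of Nsdhl and Hsd17b7, changed in cytosolic RNA by -0.30 ± 0.0727, -0.55 ± 0.0728 and -1.03 ± 0.0738, so that it fell with the inhibitor where those 2 genes rose.

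Beyond the core enzymes, 16 genes of fatty acid and lipid synthesis passed the filter. Of these 3 were higher and 11 lower in cytosolic RNA at 1 h, 2 higher and 9 lower at 16 h, and 6 higher and 7 lower with the inhibitor against 16 h alone, where 42.2% of all genes were higher and 32.5% lower. In polysome RNA 4 were higher and 10 lower at 1 h (41.1% and 38.5% of all genes). At 16 h 4 were higher and 12 lower (42.3% and 42.9%), and with the inhibitor 8 and 6 (42.1% and 40.7%). Most of these genes thus fell in polysome RNA at 1 h and 16 h, with median log2 changes of -1.28 and -0.84. Their TE was higher for 3 and lower for 10, higher for 5 and lower for 9, and higher for 7 and lower for 6 in these comparisons, of which the last is set beside 26.4% higher and 33.7% lower over all genes. TE values of the genes on these lists are given without a correction for coding length. Elovl1, an elongase of very long chains, changed in TE by -1.09 ± 0.0558, -1.09 ± 0.0557 and 0.87 ± 0.0556, and the desaturase gene Fads1 by -1.32 ± 0.0674, -1.22 ± 0.0673 and 0.82 ± 0.0671, opposite in sign to Acly and Fasn. Lpin1, a phosphatidate phosphatase, had TE changes of 0.73 ± 0.0925, 1.30 ± 0.0918 and -1.88 ± 0.0904, the same signs as those enzymes. Dgat2, which makes triglyceride, had a cytosolic change of -4.28 ± 0.133 with the inhibitor. Of 11 genes of sterol efflux, storage and lysosomal release, 5 were higher and 4 lower in cytosolic RNA at 16 h against control, where 37.9% of all genes were higher and 39.4% lower. The lysosomal cholesterol transporter gene Npc1 changed in TE by 1.05 ± 0.0778, 1.23 ± 0.0775 and -1.49 ± 0.0775, while that of its partner Npc2 changed by -0.94 ± 0.0622, -1.0 ± 0.0618 and 0.53 ± 0.0617.

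In the mouse build mm10, Scd2 and Scd1 lie near each other on chromosome 19, at 44293674 to 44306864 on the + strand and 44394455 to 44407879 on the - strand. Hsd17b7 lies on chromosome 1 at 169949535 to 169969241 and Insig2 on the same chromosome at 121304353 to 121332589, both on the - strand. Srebf2 lies on chromosome 15 at 82147181 to 82205379 (+), Fdft1 on chromosome 14 at 63145150 to 63179578 (-), Acly on chromosome 11 at 100476353 to 100528000 (-) and Elovl6 on chromosome 3 at 129532355 to 129638495 (+). All 30 are annotated as protein-coding genes. Scd1 and Scd2 are close paralogs, and because the counting rule for reads that match both is not given by the labels, their separate values are uncertain.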

How the data were processed

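Whole-number counts per gene, as deposited by the authors, were used for 32 libraries: cytosolic and polysome RNA of 16 samples, in 4 conditions with 4 replicates each. Per the submitters' processing notes, reads were aligned to mm10 with HISAT and DESeq2 1.9.23 was named; they name no counting tool, strand setting or annotation. Libraries held 19.32 to 41.78 M counts, and no replicates agreed within sampling noise (lowest chi-square per degree of freedom 2.32). Of 20234 genes, 3234 were at 0 in every library.

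The main test was edgeR 4.0.16 (R 4.3.3, limma 3.58.1): TMM scaling, filterByExpr (minimum count 10, minimum total 15), a robust quasi-likelihood F-test over the 16 libraries of a kind, and Benjamini-Hochberg adjustment over all genes tested, with a threshold of 0.05. TE was the interaction of RNA kind and condition over 32 libraries with the sample as a block. Log2 ratios per sample used a prior count of 2. The scripts were tested on simulated counts. Alternatives were other size factors, no filter, DESeq2 1.42.0, a replicate block, only the conditions compared, no sample block, leaving out each sample, and offsets corrected for coding length or, added after seeing the data, for GC content. Offsets for coding length were run for TE only.

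Genes, lists and comparisons were chosen with earlier results of these data known. Any of the 30 listed genes could be named. Levels in every sample were given for Insig1, Srebf1, Srebf2 and, in each of the 3 groups, the 2 lowest and the 1 highest cytosolic log2 change at 16 h, the 1 lowest and the 1 highest TE change at 1 h, and the 1 largest cytosolic change with the inhibitor. From the other lists up to 3 genes with the smallest p per list and comparison could be named.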

Additional observations from a re-analysis of the deposited data

Results flagged for a closer look

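Among the groups of 4 libraries of the 16 genes with levels in every sample, 5 held a library that stood apart from the other 3 by Dixon's test; chance flags about 1 in 20 groups, or 6.4 of those examined, so the number is no larger than chance gives. Acss2 in cytosolic RNA with the inhibitor was low in replicate 1, at 5.003 CPM. Insig1 in polysome RNA was high at 1 h in replicate 4, at 146.2 CPM, and low with the inhibitor in replicate 2, at 106.9 CPM. Fdft1 in polysome RNA was high at 16 h in replicate 3, at 155.5 CPM. Stard4 in cytosolic RNA was high at 16 h in replicate 1, at 21.5 CPM.

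Acss2, Hmgcs1 and Stard4 were called higher at 1 h and lower at 16 h against control, in both cytosolic and polysome RNA, and the difference between the times was itself called. The log2 change at 16 h against 1 h was -1.36 in cytosolic and -1.14 in polysome RNA for Acss2, -1.75 and -1.28 for Hmgcs1, and -1.47 and -1.28 for Stard4. Both changes share the control libraries, and the cytosolic call of Stard4 at 1 h was lost without any 1 of 3 samples.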

How the results depend on the processing

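For the 435 changes of single genes, 6106 of 6380 alternative values kept their side of the threshold, and those called kept their direction. Another 18 changed sign and were called in the main test or in the alternative, and the others lost or gained a call. A change of sign in a value called in neither was not counted, as for cytosolic Mvk at 1 h (0.12, and -0.14 with GC offsets). Of 352 called changes, 19 lost the call without 1 of the samples; counts of genes called higher for polysome RNA with the inhibitor against control ranged from 1 to 2 with a sample left out (2 without control replicate 3), and those with a lower TE at 16 h against 1 h from 1 to 2. That TE count was 2 in the main test and 1 with RLE size factors, no filter, DESeq2, only the 2 conditions compared, no sample block or offsets for coding length, and 4 with offsets for GC content. With GC offsets, the count called higher was 2 for cytosolic RNA and 5 for polysome RNA at 16 h against 1 h, 2 for polysome RNA and 8 for TE with the inhibitor against control. The causes of these shifts were not tested.

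Scd1 in cytosolic RNA with the inhibitor against 16 h alone was -0.02 with only the 2 conditions compared. With GC offsets, Mvd turned to 0.14 in cytosolic and 0.43 in polysome RNA at 16 h against 1 h and to 0.14 in polysome RNA at 16 h against control, Scap to 0.07 in cytosolic RNA at 16 h against 1 h, Dhcr7 to -0.12 and Scd1 to 0.03 in polysome RNA with the inhibitor against 16 h alone, and Scd1 to -0.15 in TE at 1 h. With coding length offsets, TE turned to -0.05 for Acaca and -0.10 for Fasn at 1 h, to 0.47 for Insig1, -0.08 for Acaca and 0.36 for Elovl6 at 16 h, and to -0.07 for Hsd17b7, -0.04 for Insig1, -0.27 for Stard4, 0.04 for Acaca and -0.22 for Elovl6 with the inhibitor against 16 h alone.

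No pairing by replicate number was seen: deviations of samples with the same number had a median correlation of 0.016 in cytosolic RNA (9 of 24 pairs over 0.1) and -0.0156 in polysome RNA (4 of 24). For different numbers it was 0.000808 (25 of 72) and 0.0141 (14 of 72). Cytosolic pairs with the same number ran from -0.477 to 0.649, so these medians cannot show that no samples were paired. With a replicate block, 2 genes were higher and 24 lower in cytosolic RNA at 16 h against control, and 5 had a higher and 14 a lower TE with the inhibitor against control. Acss2, at 5.003 to 5.52 CPM with the inhibitor, and Mvk, at 6.09 to 11.2 polysome CPM at 16 h, rested on the lowest levels.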
